A study of Mus musculus with 18 samples.

Results

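Fatty acid synthesis, storage and oxidation were followed through 35 genes chosen by name, of which 34 were measured among the 18193 genes that the arrays name. The member without a probe set of its own symbol was the acyl-CoA synthetase gene *Acsl1*. Total RNA was hybridized to 18 Affymetrix mouse expression arrays, 3 for each of 6 groups. Hepa-1c1c7, a mouse hepatoma line that the labels give as male and of C57BL/6 origin, served as the wild type and received DMSO (naive cells), TCDD (2,3,7,8-tetrachlorodibenzo-*p*-dioxin) or BaP (benzo[*a*]pyrene) for 8 hr. The mutant line *c*35, a derivative of Hepa-1c1c7 whose aryl hydrocarbon receptor (AHR) cannot bind DNA, received the same treatments for the same time. TCDD was given at 5 nM, a dose that the labels state for *c*35 cells and the study's methods for wild-type cells, and BaP at 5 µM. Both lines were grown in alpha MEM with 5% fetal bovine serum, and both ligands were dissolved in DMSO. The *c*35 line is 1 mutant derivative, so that a difference between the lines cannot be told apart from other differences that the derivative acquired. The replicates are described by the submitters as biological, each with 1 array.

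Liver cells build fatty acids from citrate through ATP citrate lyase, acetyl-CoA carboxylase and fatty acid synthase, and then elongate and desaturate them. Activated fatty acids are either joined to glycerol to make triglyceride, which is kept in lipid droplets, or carried into mitochondria as carnitine esters and oxidized. AHR, once it has bound a ligand, joins its partner ARNT and activates genes from DNA sites with a GCGTG core, and dioxin-like ligands are known for causing fat to accumulate in the liver of rodents. TCDD is a chlorinated dioxin that cells hardly metabolize, whereas BaP is a polycyclic hydrocarbon that the AHR target enzymes metabolize.

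Values are log2 signals, so that a difference of 1 is a doubling of signal. A gene was called when its change exceeded 1.5-fold, 0.585 on the log2 scale, with an adjusted p below 0.05 (limma, Benjamini-Hochberg over 45037 probe sets), except that for ligands in *c*35 cells an adjusted p below 0.1 was enough whatever the size of the change. Each gene is represented by its probe set of highest mean over the arrays. The signal of different probe sets is not on a common scale, so that levels are compared between arrays and never between genes. Of the 34 members, 28 had a mean above 5.66, the median of all probe sets tested. The 6 below it were *Acacb*, *Mlxipl*, *Gpam*, *Ehhadh*, *Pdk4* and *Cd36*.

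Of 13 measured hepatocyte markers, 9 lay above that median, among them *Alb*, *Afp*, *Krt8* and *Krt18*, while *Serpina1b*, *Fgb*, *Ahsg* and *Apob* lay below it. Of the markers of other cells, 1 of 5 adipocyte, 1 of 6 endothelial, 4 of 7 macrophage and 6 of 8 fibroblast or stellate cell genes lay above it. The summed linear signal of the macrophage list was 2586 to 3103 on wild-type arrays and 5721 to 6318 on *c*35 arrays. The brightest probe sets weigh most in that sum. Between the naive lines 14% of all genes were called in either direction, and 6.52% of all genes were called higher in *c*35 cells. Of the 7 macrophage genes 3 were called, all higher in *c*35 cells. These were *Csf1r* (10.73 in the wild type and 11.99 in *c*35), *Cd68* (7.30 and 8.70) and *Cd14* (9.58 and 10.31). The defining leukocyte gene *Ptprc* was at 2.93 and 2.85 and *Adgre1* at 4.94 and 4.87, both below the median signal, and *Lyz2* and *Aif1* were not called either. Of the 8 fibroblast or stellate cell genes 4 were called, *Col3a1* (-1.29, wild-type minus *c*35) and *Acta2* (-2.15) higher in *c*35 cells and *Pdgfra* (1.59) and *Pdgfrb* (1.20) higher in the wild type. Of the 13 hepatocyte genes 1 was called higher in the wild type, *Alb* (13.64 in the wild type and 11.18 in *c*35). Another 1 was called higher in *c*35 cells, *Fgb* (4.02 and 4.98), and the others were not called. No adipocyte or endothelial marker was called (limma). The 3′ minus 5′ difference of the *Actb* control probe sets grows as RNA degrades or is copied less fully. It was 0.73 to 1.38 on wild-type arrays and 0.30 to 0.53 on *c*35 arrays. Naive wild-type replicates 1, 2 and 3 were at 1.38, 0.85 and 0.81. The calls of members were unchanged when the *Actb* difference was a covariate. The part of these marker genes in the results between the lines was not tested. In RNA of whole cultures, fewer cells that hold a transcript and less of it per cell cannot be told apart.

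In wild-type cells the mean signal of *Cyp1a1*, the classic AHR target, was 9.73 with DMSO, 13.02 with TCDD and 13.43 with BaP. Among the *c*35 arrays, 3 stood apart in *Cyp1a1* and in *Tiparp*, another AHR target. *Cyp1a1* was at 8.32 and 8.34 on DMSO replicates 1 and 2 and at 8.32 on BaP replicate 3, against 4.87 to 6.23 on the other 6. *Tiparp* was at 10.36, 10.30 and 10.42 on the same 3 arrays, against 9.13 to 9.38 on the others. Since 2 of the 3 are labelled DMSO, member calls between the naive lines and for differences in response are also given without these 3. That choice was made after seeing the data. It leaves 1 naive *c*35 array, whose spread was assumed to be that of the other groups.

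The promoters of the members whose call the results turn on are printed for the core motif GCGTG, which was searched on both strands as GCGTG or CACGC in RefSeq promoters that run from 250 bases before to 50 after a transcription start (GRCm38.p6). No binding was measured on these arrays, and a match is a description of the letters. Sequences read 5′ to 3′ along the gene, in lower case with matches in capitals. The first is that of *Lpin1* at chr12:16610917-16611216 on the minus strand, whose start lies within the annotated span of the gene. The next are the first and second of the 3 starts listed for *Lpin2*, at chr17:71183282-71183581 and chr17:71183728-71184027 on the plus strand. *Pdk4* lies at chr6:5496229-5496528 on the minus strand and *Cpt1a* at chr19:3323051-3323350 on the plus strand.
Lpin1: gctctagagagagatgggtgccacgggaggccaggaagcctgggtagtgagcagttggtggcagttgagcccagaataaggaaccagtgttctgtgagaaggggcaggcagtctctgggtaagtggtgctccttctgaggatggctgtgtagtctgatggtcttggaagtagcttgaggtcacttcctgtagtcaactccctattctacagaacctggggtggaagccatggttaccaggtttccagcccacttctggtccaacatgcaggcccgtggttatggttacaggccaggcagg
Lpin2 start 1: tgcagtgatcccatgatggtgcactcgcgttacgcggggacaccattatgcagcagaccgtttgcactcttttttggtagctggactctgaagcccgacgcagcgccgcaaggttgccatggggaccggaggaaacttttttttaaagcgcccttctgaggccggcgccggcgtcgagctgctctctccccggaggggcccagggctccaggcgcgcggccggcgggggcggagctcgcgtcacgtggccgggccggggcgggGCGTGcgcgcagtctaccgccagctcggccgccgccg
Lpin2 start 2: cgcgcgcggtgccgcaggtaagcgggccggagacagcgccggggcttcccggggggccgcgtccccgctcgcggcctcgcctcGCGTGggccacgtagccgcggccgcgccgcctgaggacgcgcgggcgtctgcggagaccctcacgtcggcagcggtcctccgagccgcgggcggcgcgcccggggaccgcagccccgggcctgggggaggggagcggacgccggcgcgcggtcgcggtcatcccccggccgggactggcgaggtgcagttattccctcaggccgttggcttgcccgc
Pdk4: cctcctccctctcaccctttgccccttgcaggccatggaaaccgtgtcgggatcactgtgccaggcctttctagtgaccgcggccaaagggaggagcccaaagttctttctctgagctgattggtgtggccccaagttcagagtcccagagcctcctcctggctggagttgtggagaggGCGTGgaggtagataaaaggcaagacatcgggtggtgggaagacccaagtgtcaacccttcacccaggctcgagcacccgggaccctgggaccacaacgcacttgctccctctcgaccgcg
Cpt1a: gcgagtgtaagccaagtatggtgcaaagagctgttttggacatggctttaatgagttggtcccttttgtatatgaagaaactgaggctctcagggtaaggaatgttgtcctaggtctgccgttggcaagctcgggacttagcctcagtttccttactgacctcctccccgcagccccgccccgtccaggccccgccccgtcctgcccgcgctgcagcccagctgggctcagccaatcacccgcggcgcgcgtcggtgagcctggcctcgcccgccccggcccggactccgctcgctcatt

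The *Lpin1* and *Cpt1a* windows hold no match. Each of the printed *Lpin2* windows holds 1, which begins at base 14 counted from the first start and 167 bases before the second. The window of the remaining start, at chr17:71204404-71204703, holds none. The *Pdk4* window holds 1, which begins 71 bases before the start. The motif was present in 20 of 33 listed promoters of the members (60.6%), which belong to 28 genes, and in 32.4% of all 32851 promoters. The share rests on short windows that may overlap in sequence and differ in base composition, and no test was run on it. *Scd1*, *Dgat2*, *Dgat1*, *Scd2*, *Fads1* and *Angptl4* had no entry in the table of promoters.

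BaP raised 2 of the 34 members in wild-type cells, both of them lipin genes, and called no member lower. Over all genes 0.885% were called higher. Lipins are phosphatidate phosphatases that make the diacylglycerol from which triglyceride is built, and lipin 1 also acts in the nucleus as a partner of PPARα and PGC-1α. The other 32 members did not reach the call, and the median change over the 34 was -0.0082, beside 0.0012 over all genes.

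*Lpin1* signal was 7.66, 7.39 and 7.56 on the 3 naive wild-type arrays, 7.78, 8.03 and 7.95 with TCDD, and 8.34, 8.32 and 8.49 with BaP. The 3 groups did not overlap, and BaP gave the highest values. With BaP *Lpin1* rose by 0.85 ± 0.09 (log2, SE), which is 1.80-fold (adjusted p = 3.18e-06). With TCDD it was higher by 0.39 ± 0.09, with an adjusted p of 0.037 but a change of 1.31-fold, below the minimum. A second *Lpin1* probe set was called with BaP as well, at 0.96, and gave 0.51 with TCDD.

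*Lpin2* signal was 9.36, 9.12 and 9.12 on the naive wild-type arrays, 9.82, 9.77 and 9.66 with TCDD, and 9.96, 9.96 and 9.97 with BaP. Both ligand groups lay above the naive arrays, and all BaP values lay above all TCDD values. BaP raised *Lpin2* by 0.76 ± 0.10, or 1.697-fold (adjusted p = 7.37e-05). With TCDD the change was 0.55 ± 0.10, or 1.46-fold (adjusted p = 0.0089), just under the minimum change, and it passed the minimum without naive wild-type replicate 1 (0.63) and without TCDD replicate 3 (0.60). Of the 4 *Lpin2* probe sets 3 were called with BaP, and the fourth gave 0.48 (adjusted p = 0.11). The 3 probe sets not used as the value of the gene had TCDD changes between 0.29 and 0.39, none of them past an adjusted p of 0.05.

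**Figure D1:**
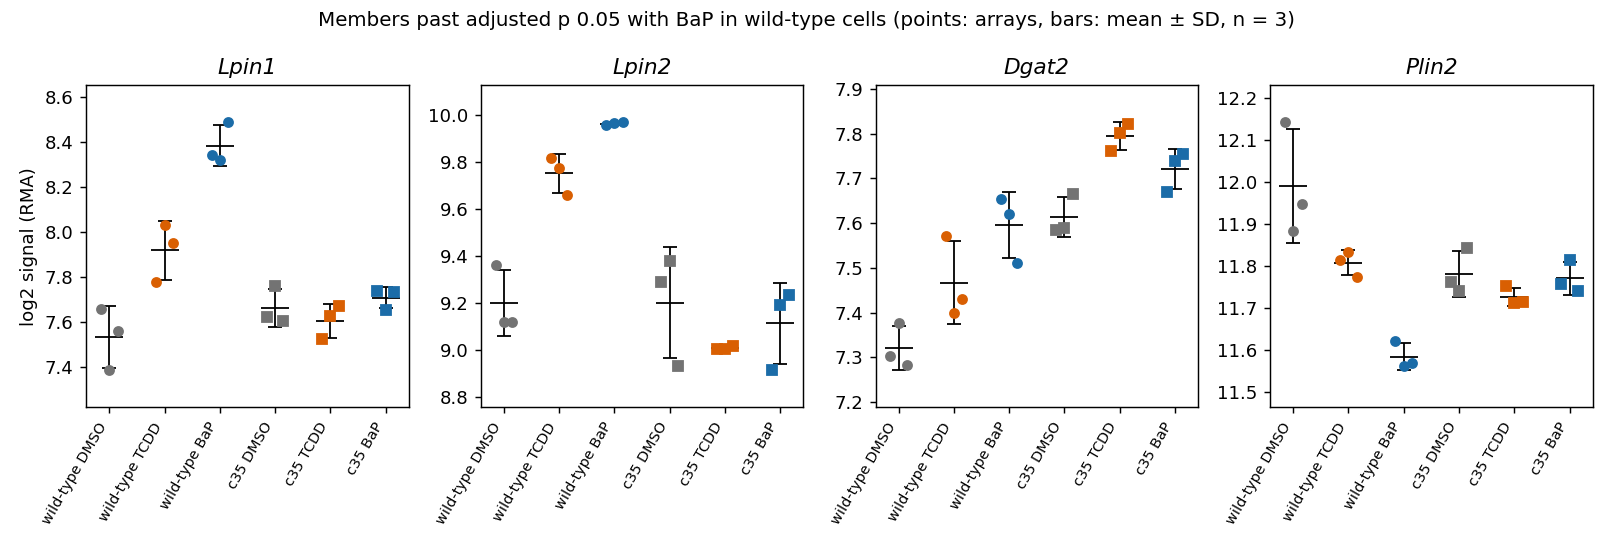
Log2 signal of *Lpin1*, *Lpin2*, *Dgat2* and *Plin2* on each of the 18 arrays, by group, with points for arrays and bars for the mean ± SD of 3 arrays; the vertical axes do not start at 0. In wild-type cells the BaP arrays of *Lpin1* lie at 8.32 to 8.49 above the naive arrays at 7.39 to 7.66, and those of *Plin2* at 11.56 to 11.62 below the naive arrays at 11.88 to 12.14.

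With no minimum change 4 members passed with BaP, 3 of them higher and 1 lower, where 3.33% of all genes were higher and 3.14% lower. Beside the lipins, these were *Dgat2*, which encodes an enzyme of the last step of triglyceride synthesis, and *Plin2*, which encodes a protein that coats lipid droplets. *Plin2* signal was 12.14, 11.88 and 11.95 on naive wild-type arrays, 11.81, 11.83 and 11.77 with TCDD, and 11.62, 11.56 and 11.57 with BaP. The groups did not overlap, with BaP lowest. The difference with BaP was -0.41 ± 0.06, 1.33-fold down (adjusted p = 0.00029), and that with TCDD was -0.18 ± 0.06 (adjusted p = 0.21). *Dgat2* signal was 7.30, 7.38 and 7.28 on naive wild-type arrays, 7.57, 7.40 and 7.43 with TCDD, and 7.65, 7.62 and 7.51 with BaP. All 6 ligand arrays lay above the naive ones. The difference with BaP was 0.27 ± 0.07 (adjusted p = 0.024, or 0.051 without the 3 *c*35 arrays that stand apart). The second *Dgat2* probe set gave 0.17 (adjusted p = 0.55).

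TCDD called none of the 34 members in wild-type cells, where 0.379% of all genes were called in either direction. At an unadjusted p below 0.05 there were 11 members, 4 higher and 7 lower, where 8.28% of all genes were higher and 5.99% lower. With BaP there were 7 at that threshold, 4 higher and 3 lower, where 9.14% of all genes were higher and 10% lower. With TCDD and no minimum change 2 members passed, *Lpin1* and *Lpin2*, both higher, where 0.764% of all genes were higher. The median TCDD change over the members was -0.015, beside 0.0063 over all genes. Without the 3 *c*35 arrays that stand apart the adjusted p of *Lpin1* with TCDD was 0.079, and that of *Lpin2* was 0.0032.

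**Figure D2:**
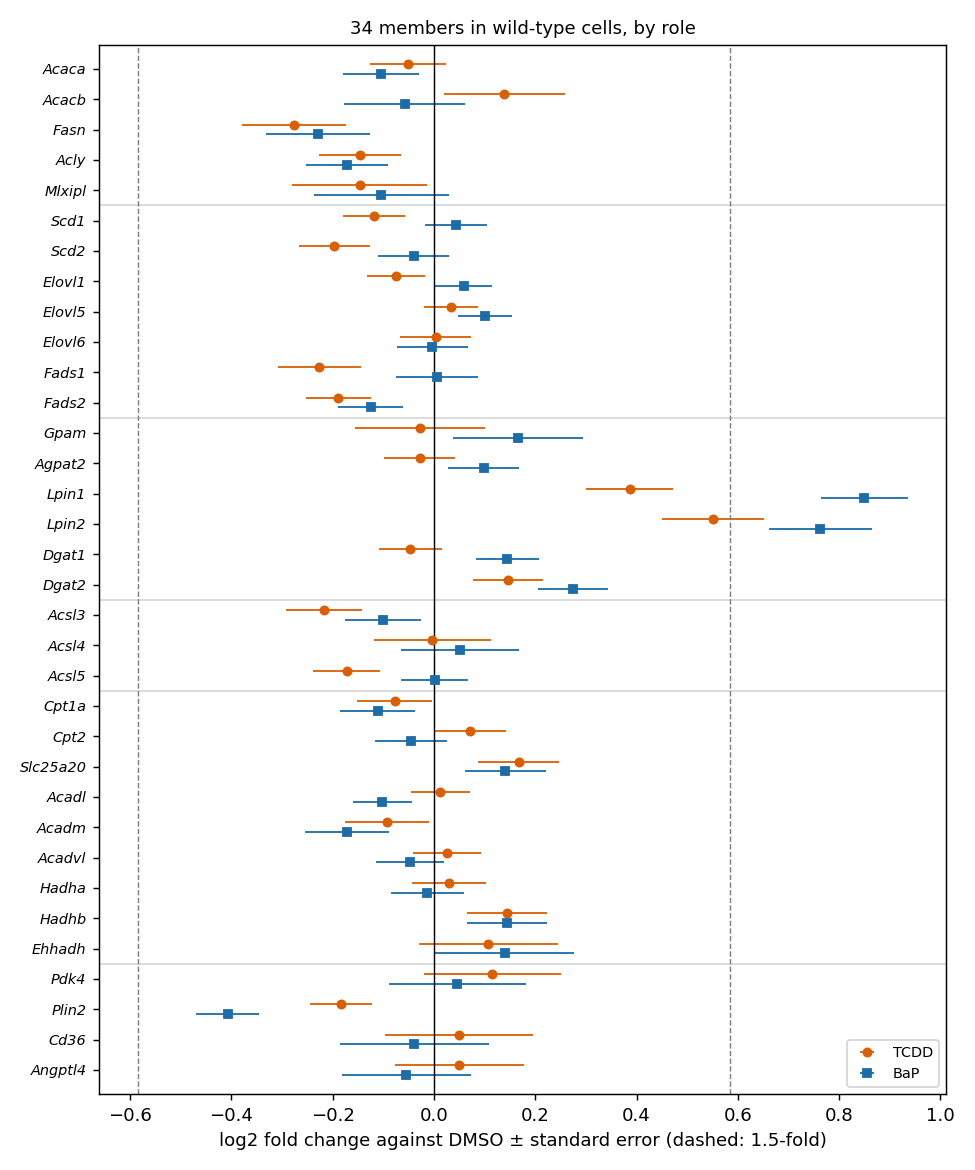
Log2 fold change of the 34 members against DMSO in wild-type cells, with circles for TCDD, squares for BaP and bars for the standard error; members are ordered by role and dashed lines mark 1.5-fold. *Lpin1* at 0.85 and *Lpin2* at 0.76 with BaP are the points beyond the dashed lines.

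In the other parts of the pathway no member was called with a ligand. Of the 5 genes of de novo synthesis, changes with BaP ran from -0.23 to -0.06 and with TCDD from -0.28 to 0.14. *Fasn*, which encodes fatty acid synthase, was at 10.99, 10.65 and 10.69 on naive wild-type arrays, 10.59, 10.49 and 10.42 with TCDD, and 10.51, 10.54 and 10.59 with BaP. Both ligand groups lay below the naive arrays, of which replicate 1 was the highest. The differences were -0.28 ± 0.10 with TCDD (adjusted p = 0.25) and -0.23 ± 0.10 with BaP (adjusted p = 0.26). *Acly*, which encodes the lyase that makes cytosolic acetyl-CoA, was at 11.73, 11.32 and 11.41 on naive arrays, and its 6 ligand arrays, at 11.28 to 11.38, overlapped them (-0.17 with BaP, adjusted p = 0.30). The acetyl-CoA carboxylase genes *Acaca* and *Acacb* ranged over all arrays from 8.53 to 9.07 and from 5.13 to 5.75. *Mlxipl*, which encodes the carbohydrate-responsive factor ChREBP, ranged from 4.07 to 4.95.

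The 7 desaturases and elongases changed by -0.23 to 0.03 with TCDD and by -0.13 to 0.10 with BaP. *Scd2*, which encodes a stearoyl-CoA desaturase, was at 13.49, 13.19 and 13.16 on naive wild-type arrays, 13.09, 13.09 and 13.07 with TCDD, and 13.20, 13.29 and 13.23 with BaP. The TCDD arrays were the lowest, at -0.20 ± 0.07 (adjusted p = 0.24). The Δ6 desaturase gene *Fads2* was at 9.55, 9.49 and 9.46 on naive arrays, 9.38, 9.22 and 9.33 with TCDD and 9.34, 9.36 and 9.41 with BaP, differences of -0.19 (adjusted p = 0.22) and -0.13 (adjusted p = 0.35). The Δ5 desaturase gene *Fads1* differed by -0.23 with TCDD (adjusted p = 0.24) and by 0.01 with BaP. Over all arrays the elongase gene *Elovl6* ranged from 10.34 to 10.87 and *Fads1* from 10.23 to 10.73. Values of *Elovl1* and *Elovl5* come from probe sets that the array's maker marks as possibly binding related transcripts, as do those of *Dgat1*, *Acsl3* and *Angptl4*.

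Besides the lipins and *Dgat2*, the genes of glycerolipid assembly were *Gpam*, which encodes the mitochondrial acyltransferase of the first step, *Agpat2*, which encodes that of the second, and *Dgat1*. *Dgat1* was at 9.82 on each naive wild-type array, 9.85, 9.80 and 9.67 with TCDD, and 9.94, 9.95 and 10.01 with BaP, and the BaP difference of 0.14 ± 0.06 had an adjusted p of 0.23. *Gpam* ranged over all arrays from 4.64 to 5.27 and *Agpat2* from 8.44 to 8.87. The changes of these 6 genes with BaP all lay above 0, from 0.10 to 0.85, and with TCDD they ran from -0.05 to 0.55.

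The acyl-CoA synthetases activate fatty acids for either fate. *Acsl5* was at 12.40, 12.15 and 12.24 on naive wild-type arrays, 12.11, 12.08 and 12.08 with TCDD, and 12.25, 12.30 and 12.24 with BaP. *Acsl3* was at 9.38, 9.38 and 9.29, then 9.12, 9.05 and 9.23 with TCDD, and 9.21, 9.27 and 9.27 with BaP. The TCDD arrays of both genes lay below the naive ones, with differences of -0.17 (adjusted p = 0.27) and -0.22 (adjusted p = 0.22). *Acsl4* ranged from 9.16 to 9.71 over all arrays.

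The 9 genes of carnitine entry and β-oxidation changed by -0.17 to 0.14 with BaP and by -0.09 to 0.17 with TCDD, and none passed. The largest with BaP was that of *Acadm*, which encodes the medium-chain acyl-CoA dehydrogenase. It was at 10.35, 10.17 and 10.21 on naive wild-type arrays and 10.16, 9.95 and 10.10 with BaP, a difference of -0.17 ± 0.08 (adjusted p = 0.31). The long-chain dehydrogenase gene *Acadl* was at 11.03, 11.06 and 11.06 on naive arrays, 11.04, 11.07 and 11.08 with TCDD and 10.9999, 10.83 and 11.01 with BaP. Over all arrays the carnitine transferase gene *Cpt2* ranged from 8.22 to 8.69 and the carrier gene *Slc25a20* from 7.88 to 8.30. The very-long-chain dehydrogenase gene *Acadvl* ranged from 8.68 to 8.95, and the trifunctional protein genes *Hadha* and *Hadhb* from 8.20 to 8.55 and from 9.49 to 9.88. The peroxisomal gene *Ehhadh* ranged from 2.97 to 3.71.

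Among the genes of uptake and fuel use, *Pdk4*, *Cd36* and *Angptl4* changed by -0.06 to 0.05 with BaP and by 0.05 to 0.12 with TCDD. Their standard errors were 0.13 to 0.15, and *Pdk4* and *Cd36* lay below the median signal. *Angptl4*, which encodes an inhibitor of lipoprotein lipase, ranged from 5.60 to 6.18 over all arrays.

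TCDD and BaP did not differ past the call for any member, where 0.258% of all genes were called. At an unadjusted p below 0.05 there were 9 members, 1 higher and 8 lower with TCDD, where 8.79% of all genes were higher and 7.13% lower. With no minimum change *Lpin1* passed, lower with TCDD than with BaP by 0.46 ± 0.09 (adjusted p = 0.0083, 95% interval of TCDD minus BaP -0.64 to -0.29), where 0.781% of all genes were lower. For *Lpin2* the difference was -0.21 (95% interval -0.42 to -0.0014, adjusted p = 0.36), and for *Plin2* it was 0.22 (95% interval 0.10 to 0.35, adjusted p = 0.080). The doses of the ligands differ, and both comparisons with DMSO share the naive arrays.

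In *c*35 cells neither ligand called a member, nor any gene among all those tested (0% with TCDD and 0% with BaP). The lowest adjusted p over the members was 0.96 with TCDD and 0.9998 with BaP (limma). At an unadjusted p below 0.05 there were 3 members with TCDD, 1 higher and 2 lower, where 2.29% of all genes were higher and 2.87% lower. With BaP there were 0 members, where 3.53% of all genes passed. *Lpin1* was at 7.62, 7.76 and 7.60 on naive *c*35 arrays, 7.52, 7.63 and 7.67 with TCDD, and 7.74, 7.66 and 7.73 with BaP, so that the 3 groups overlapped. The 95% interval of its BaP change in *c*35 cells was -0.13 to 0.22. *Lpin2* was at 9.29, 9.38 and 8.93 on naive *c*35 arrays, 9.0037, 9.0039 and 9.02 with TCDD, and 8.91, 9.19 and 9.24 with BaP. The naive replicates 1 and 2 and BaP replicate 3, which hold its highest values in this line, are the arrays that stood apart in *Cyp1a1*. The 95% interval of its BaP change was -0.30 to 0.12, and without those 3 arrays the change was 0.12 ± 0.12.

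Wild-type cells responded more strongly to BaP than *c*35 cells for both lipins, by a test of the difference itself, where 1.01% of all genes were called higher. The difference in response was 0.80 ± 0.12 for *Lpin1* (adjusted p = 0.0009) and 0.85 ± 0.14 for *Lpin2* (adjusted p = 0.0023). Without the 3 *c*35 arrays that stood apart it was 0.76 (adjusted p = 0.071) and 0.64 (adjusted p = 0.11), and neither gene was called. Both *Lpin1* probe sets were called for this difference, but 1 of the 4 of *Lpin2*. For *Plin2* the difference was -0.40 ± 0.09 (adjusted p = 0.019), past the adjusted p alone, where 0.775% of all genes were lower, and -0.35 (adjusted p = 0.40) without those arrays. *Plin2* in *c*35 cells was at 11.76, 11.74 and 11.84 with DMSO, 11.75, 11.71 and 11.71 with TCDD, and 11.76, 11.81 and 11.74 with BaP.

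For TCDD the difference in response was called for *Lpin2*, at 0.74 ± 0.14 (adjusted p = 0.029), where 0.275% of all genes were called higher. It was lost in 9 of the 18 fits that left out 1 array, with 0.65 to 0.88 over all 18, and without the 3 *c*35 arrays that stood apart it was 0.47 (adjusted p = 0.67). The 9 were those without naive wild-type replicate 2 or 3, wild-type TCDD replicate 1 or 2, naive *c*35 replicate 1 or 2, or *c*35 TCDD replicate 1, 2 or 3. With all probe sets of a gene averaged, it was 0.47 (adjusted p = 0.37). For *Lpin1* the difference in response to TCDD was 0.44 ± 0.12 (adjusted p = 0.24).

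The naive lines differed in 3 members. *Pdk4* was higher in wild-type cells, where 7.52% of all genes were called higher, and *Cpt1a* and *Scd1* were higher in *c*35 cells, where 6.52% of all genes were called that way. *Pdk4* encodes the kinase that shuts pyruvate out of the citric acid cycle in favour of fatty acids, *Cpt1a* the transferase that sets the pace of mitochondrial fatty acid entry, and *Scd1* the desaturase that makes oleate. At the adjusted p alone 7 members were higher and 6 lower in the wild type, which is 13 of 34 where 18.7% of all genes were higher and 19.1% lower.

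*Pdk4* signal was 5.31, 5.84 and 5.14 on naive wild-type arrays and 3.71, 3.71 and 3.54 on naive *c*35 arrays. The other wild-type arrays lay at 5.44 to 5.64 and the other *c*35 arrays at 3.65 to 4.004, so that the lines did not overlap under any treatment. The naive difference was 1.78 ± 0.14, 3.43-fold (adjusted p = 1.67e-09), from a dim probe set: every array of either line other than naive wild-type replicate 2 lay below the median signal of 5.66.

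*Cpt1a* signal was 8.76, 8.74 and 8.82 on naive wild-type arrays and 9.79, 9.71 and 9.63 on naive *c*35 arrays. Over all treatments wild-type arrays lay at 8.58 to 8.82 and *c*35 arrays at 9.45 to 9.79. The naive difference was -0.93 ± 0.07, which is 1.91-fold higher in *c*35 cells (adjusted p = 3.09e-09). Its other probe sets gave -0.53 and -0.51, past the adjusted p and short of the minimum change.

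*Scd1* signal was 11.07, 10.98 and 11.03 on naive wild-type arrays and 11.95, 11.93 and 11.78 on naive *c*35 arrays. Over all treatments wild-type arrays lay at 10.89 to 11.12 and *c*35 arrays at 11.67 to 11.95. The naive difference was -0.86 ± 0.06, 1.82-fold higher in *c*35 cells (adjusted p = 6.29e-10), and the second *Scd1* probe set was called at -0.69. Without the 3 *c*35 arrays that stood apart the same 3 members were called, at 1.89, -0.86 and -0.75 for *Pdk4*, *Cpt1a* and *Scd1*.

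**Figure D3:**
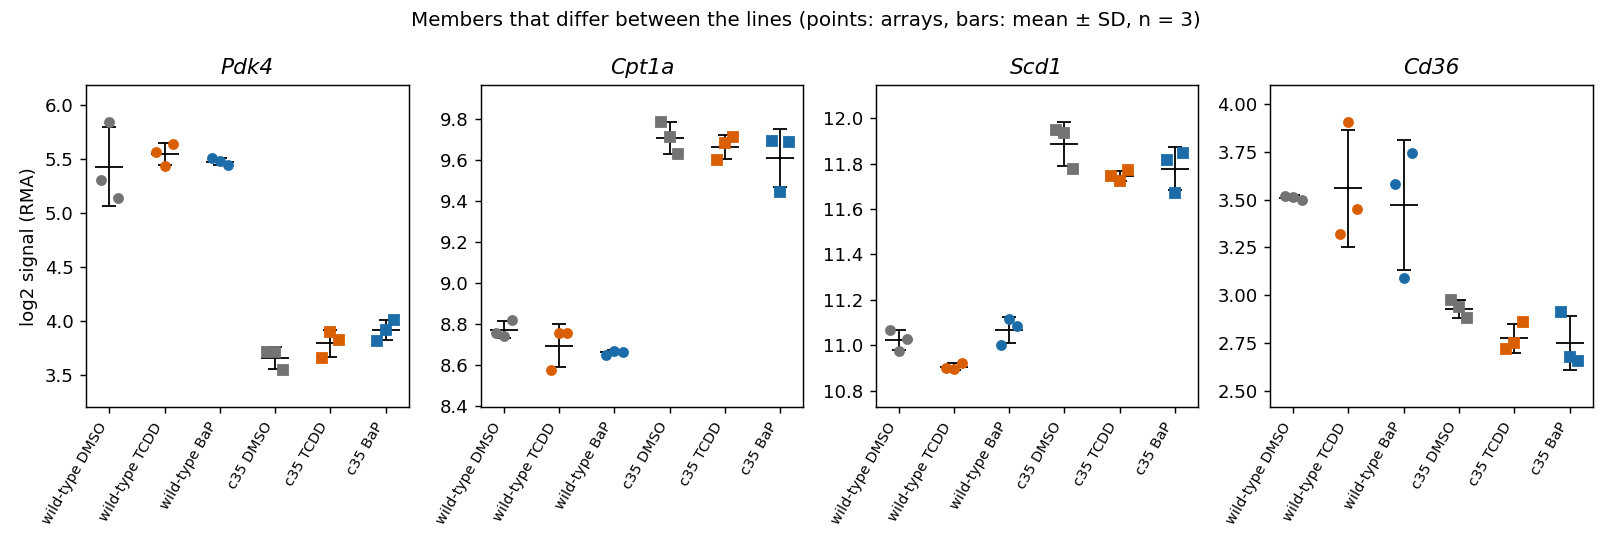
Log2 signal of *Pdk4*, *Cpt1a*, *Scd1* and *Cd36* on each of the 18 arrays, by group, with points for arrays and bars for the mean ± SD of 3 arrays; the vertical axes do not start at 0. For *Pdk4* the wild-type arrays lie at 5.14 to 5.84 and the *c*35 arrays at 3.54 to 4.004, and for *Cpt1a* and *Scd1* the *c*35 arrays all lie above the wild-type ones.

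The members past the adjusted p alone were, higher in wild-type cells, *Acly* at 0.54, *Cd36* at 0.58, *Mlxipl* at 0.40, *Elovl5* at 0.36, *Elovl6* at 0.25 and *Plin2* at 0.21. Those lower were *Elovl1* at -0.46, *Dgat2* at -0.29, *Cpt2* at -0.21 and *Fads2* at -0.17. With the probe sets of a gene averaged, *Acly* differed by 0.22 (adjusted p = 0.0036). *Acly* ranged from 11.28 to 11.73 on wild-type and from 10.71 to 11.01 on *c*35 arrays. *Elovl5*, which encodes an elongase of polyunsaturated fatty acids, ranged from 12.14 to 12.31 and from 11.62 to 11.87. *Elovl1*, which encodes an elongase of saturated very long chains, ranged from 11.40 to 11.66 and from 11.91 to 12.06. In each of these 3 genes the lines did not overlap over all treatments. The same held for *Elovl6*, *Fads2* and *Cd36*, and the share of all genes that separate the lines so was not determined. The adjusted p of *Cd36* was 0.14 with the *Actb* difference as a covariate and 0.052 without the 3 *c*35 arrays that stood apart. *Cd36*, which encodes a fatty acid translocase, was at 3.50 to 3.52 on naive wild-type arrays and at 2.88 to 2.97 on naive *c*35 arrays, all far below the median signal. It was called when the lines were compared on the TCDD arrays (0.79) and on the BaP arrays (0.72).

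Compared on the TCDD arrays the lines differed in 5 members (15% of all genes) and on the BaP arrays in 6 (15.8% of all genes), each including *Pdk4*, *Cpt1a*, *Scd1* and *Cd36*. *Lpin2* joined them on both, at 0.74 and 0.85, and *Lpin1* on the BaP arrays, at 0.68. On the DMSO arrays *Lpin1* and *Lpin2* differed by -0.13 and -0.0014, and without the 3 *c*35 arrays that stood apart by -0.07 and 0.27. The comparison on the BaP arrays was not repeated without *c*35 BaP replicate 3.

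**Figure D4:**
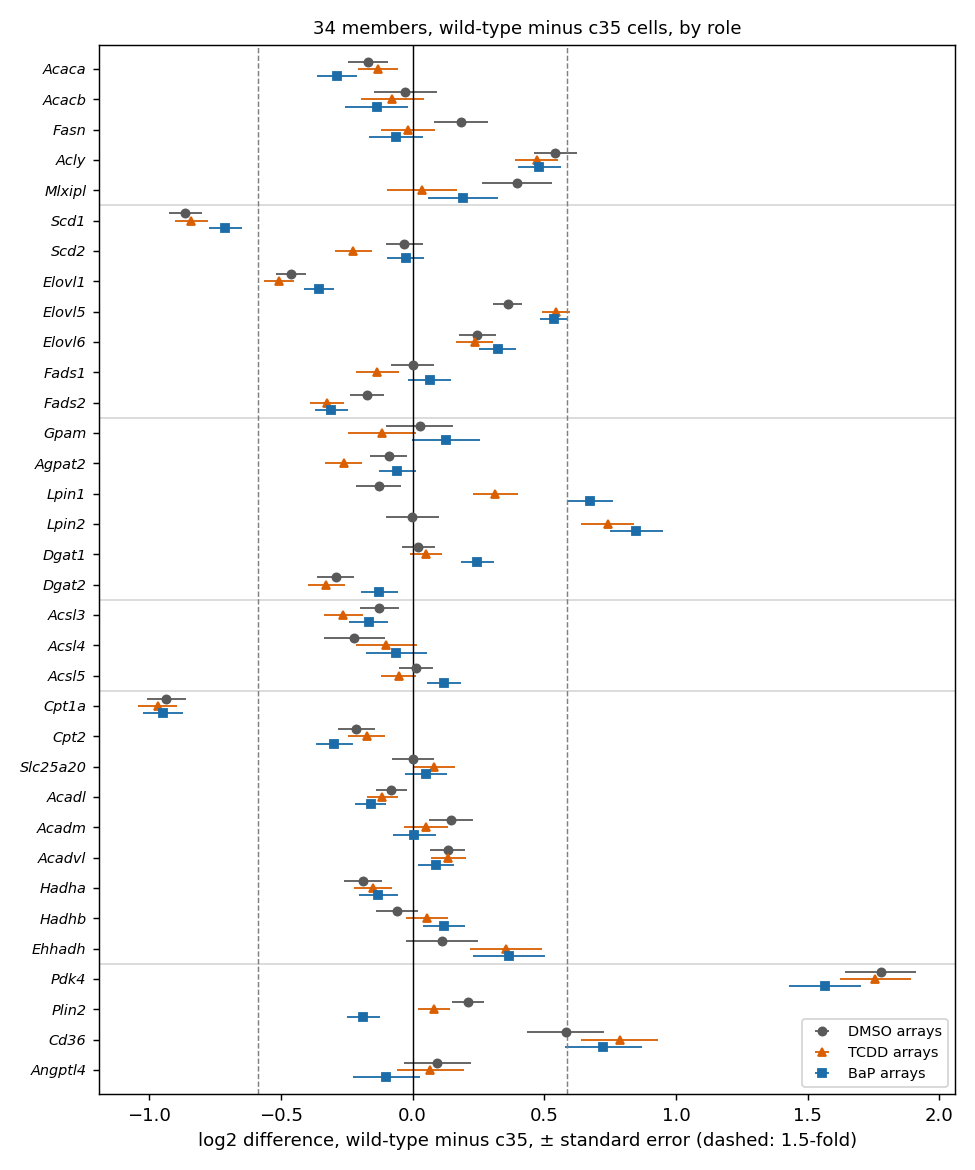
Log2 difference, wild-type minus *c*35, of the 34 members on the DMSO (circles), TCDD (triangles) and BaP (squares) arrays, with bars for the standard error, members ordered by role and dashed lines at 1.5-fold. *Pdk4* lies at 1.78 on the DMSO arrays, *Cpt1a* at -0.93 and *Scd1* at -0.86, and *Lpin1* and *Lpin2* lie near 0 on the DMSO arrays and at 0.68 and 0.85 on the BaP arrays.

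The call between the naive lines depended on the probe set for 8 members. The 3 probe sets of *Scd2* gave -0.03, -1.55 and -2.58, of which the second and the third were called (adjusted p = 1.24e-05 and 1.66e-12). *Acsl4* gave -0.22, -0.36 and -2.12 and *Fads2* gave -0.17, -0.18 and -1.18, the last of each called. For these 3 genes the called probe sets, all lower in wild-type cells, are not those that stand for the gene above. *Elovl1* was called in 1 of 4 probe sets (-0.80), *Dgat2* in 1 of 2 (-0.66), *Lpin2* in 1 of 4 (-0.79), *Cpt1a* in 1 of 3 and *Cd36* in 1 of 3 (0.66). Of these called probe sets, only that of *Cpt1a* stands for its gene above. No *Acly* probe set was called, but they differed in direction, with 0.54 and 0.44 from the brightest and -0.19 (adjusted p = 0.33) from the next. Which transcript forms these probe sets detect was not analysed here.

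A further 156 genes of the same pathways were listed by role, and 134 of them measured. With TCDD in wild-type cells 1 of them was called, where 0.379% of all genes were, and with BaP 4, of which 3 were higher, where 1.32% of all genes were called in either direction. The nuclear receptor gene *Ppard* rose with both, by 0.75 with TCDD (adjusted p = 9.12e-05) and by 0.85 with BaP (adjusted p = 4.51e-06). Its signal was 7.23, 7.20 and 7.20 on naive wild-type arrays, 7.98, 8.03 and 7.88 with TCDD, and 8.21, 7.93 and 8.03 with BaP. In *c*35 cells *Ppard* stayed between 7.08 and 7.43 on all 9 arrays.

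With BaP *Cebpb*, which encodes a C/EBP transcription factor, rose by 0.65 ± 0.07, from 11.91, 11.63 and 11.67 to 12.43, 12.41 and 12.32. Its TCDD arrays also lay above the naive ones, at 12.13, 12.09 and 12.09, short of the call. *Angptl8*, which encodes a secreted regulator of lipoprotein lipase, rose with BaP by 0.73 ± 0.10, from 5.88, 6.07 and 6.17 to 6.70, 6.68 and 6.92. With TCDD it was at 6.58, 6.70 and 6.55, a change of 0.57, just under the minimum change. On naive *c*35 arrays *Angptl8* was already at 6.64, 6.79 and 6.56, and it was called between the naive lines at -0.63 (wild-type minus *c*35). *Ppargc1b*, which encodes the coactivator PGC-1β, fell with BaP by 0.70 on the log2 scale, from 7.60, 7.37 and 7.68 to 6.80, 6.78 and 6.96 (adjusted p = 0.00081). With TCDD it was at 7.06, 7.56 and 7.12, which overlapped the naive arrays. None of the listed genes of fatty acid synthesis, of lipid droplets and lipolysis, or of oxidation was called with a ligand in wild-type cells. At the adjusted p alone, 5 of 27 genes of droplets and lipolysis were higher with BaP and 0 lower. Of 38 genes of oxidation 2 were higher and 1 lower, where 3.33% of all genes were higher and 3.14% lower. The same 4 genes were called for a difference in BaP response between the lines, where 1.34% of all genes were called in either direction. The differences were 0.96 for *Ppard*, 0.73 for *Cebpb*, 0.64 for *Angptl8* and -0.84 for *Ppargc1b*. For the difference in TCDD response *Ppard* was called, at 0.93, where 0.275% of all genes were called higher. Without the 3 *c*35 arrays that stood apart, *Ppard* and *Cebpb* remained called for BaP, while *Ppard* for TCDD had an adjusted p of 0.054. With the probe sets of a gene averaged, *Ppard* was not called with either ligand (0.49 with TCDD and 0.44 with BaP), nor for the difference in BaP response (0.53).

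**Figure D5:**
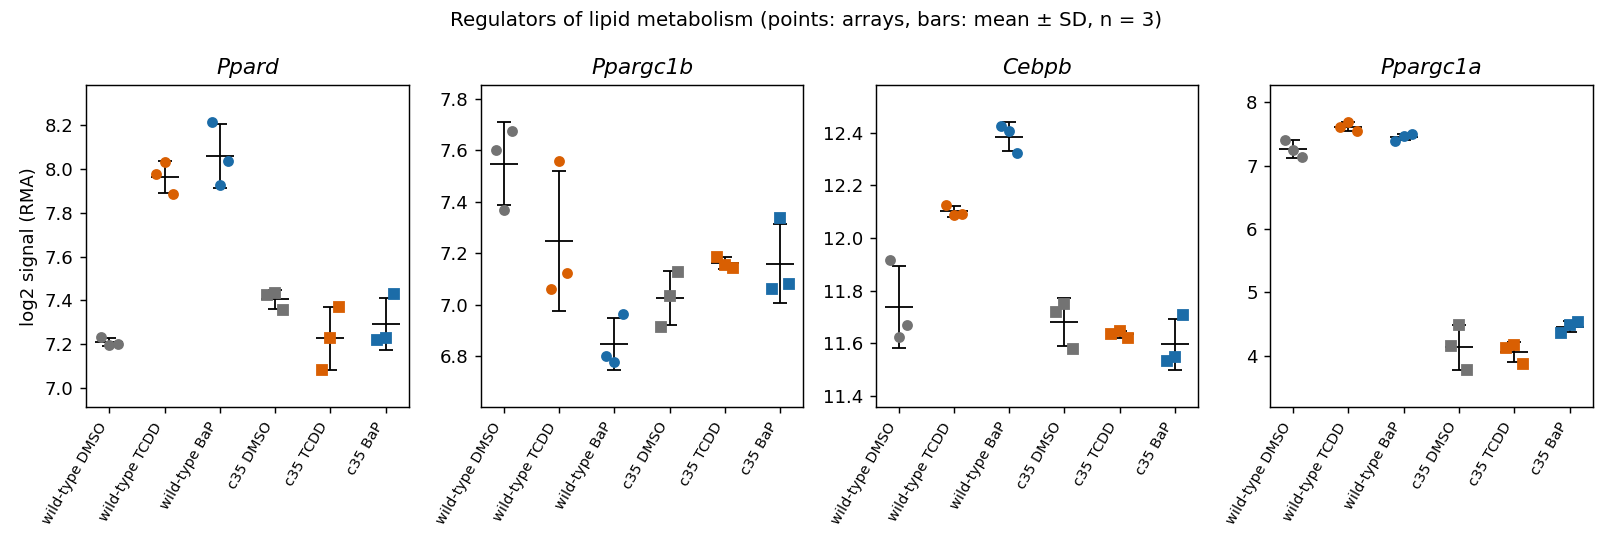
Log2 signal of *Ppard*, *Ppargc1b*, *Cebpb* and *Ppargc1a* on each of the 18 arrays, by group, with points for arrays and bars for the mean ± SD of 3 arrays; the vertical axes do not start at 0. *Ppard* lies at 7.20 to 7.23 on naive wild-type arrays and at 7.88 to 8.21 with a ligand, and *Ppargc1a* lies above 7 on all wild-type and below 5 on all *c*35 arrays.

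Between the naive lines 22 of the 134 were called, 12 higher and 10 lower in wild-type cells, where 14% of all genes were called in either direction. The largest difference was in *Ppargc1a*, which encodes the coactivator PGC-1α, at 3.13 ± 0.13, with 7.41, 7.25 and 7.14 on wild-type and 4.16, 4.48 and 3.77 on *c*35 arrays. *Vldlr*, which encodes a lipoprotein receptor, was higher in wild-type cells by 2.77 and the corepressor gene *Nrip1* by 1.30. The *Vldlr* probe set is of a kind that the array's maker marks as possibly binding related transcripts. Over the alternatives *Vldlr* ran from 1.90 to 3.04. *Cebpd*, which encodes another C/EBP factor, was lower, at -2.55 ± 0.17. With the probe sets of a gene averaged *Nrip1* was at 0.4995 and no longer called, and *Cebpd* was at -1.48 and still called. Among the genes of droplets and lipolysis, *Pnpla2*, which encodes adipose triglyceride lipase, was at -0.90 and *Abhd5*, which encodes its coactivator, at -0.96, while *Bscl2*, which encodes seipin, was at 0.96. Of the 19 measured genes of fatty acid synthesis and modification 3 were called, all lower in wild-type cells: *Elovl7* at -0.99, the citrate carrier gene *Slc25a1* at -0.85 and *Mid1ip1* at -0.63. Of 38 genes of oxidation 3 were called, with *Abcd2* at 0.78, *Acot2* at 0.67 and *Pex11a* at -0.82.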

How the data were processed

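Log2 signals of 18 arrays were analysed. The authors deposited a single table of log2 signals for 45101 probe sets, made by robust multiarray averaging (RMA, version not given in the sources used here), and these were used without another normalization. Because that method gives all arrays a common distribution of signals, a shift shared by most genes would not be seen. Of the probe sets, 64 controls were left out of the tests. Genes were named through the platform annotation, from probe sets with 1 symbol (34945 of 45037). In limma (version 3.58.1, R version 4.3.3, data.table version 1.17.8) all arrays entered 1 fit with a mean per group, followed by eBayes with an intensity trend, and the procedure was tested on simulated data. No arrays held identical values. Precision is limited by the number of arrays.

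The members and lists were chosen with earlier results of these data known. Values on each array are given for members that were called and, in each role group, for the member with the largest BaP change and the member with the highest mean, and a range for the others. *Dgat2*, *Plin2*, *Acly*, *Cd36*, *Elovl1* and *Elovl5* were singled out after their values were seen. Promoter sequences came from RefSeq (GRCm38.p6). The alternatives were a fit without the trend, array weights, quantile normalization, median centring, no dim probe sets, 1 averaged value per gene, a replicate block, calls by adjusted p alone, limma's test against 1.5-fold, the compared arrays alone, the *Actb* difference as a covariate, and each array left out. Leaving out 3 *c*35 arrays, comparing the lines on ligand arrays, and following the other pathway genes through these alternatives were added after seeing the data. Figures were drawn with matplotlib 3.10.9.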

Additional observations from a re-analysis of the deposited data

Results flagged for a closer look

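The response to a ligand differed between the lines, by the test of the difference itself, for 2 members. For *Lpin1* the BaP response of wild-type cells exceeded that of *c*35 cells by 0.80 (adjusted p = 0.0009). For *Lpin2* it was higher by 0.85 with BaP (adjusted p = 0.0023) and by 0.74 with TCDD (adjusted p = 0.029). All 3 differences were short of the call without the *c*35 arrays DMSO replicates 1 and 2 and BaP replicate 3, on which *Cyp1a1* and *Tiparp* stood apart, at 0.76, 0.64 and 0.47 (adjusted p = 0.071, 0.11 and 0.67). Across the alternatives tried, adjusted p-values lay between 8.02e-05 and 1 for *Lpin1* with BaP, between 7.45e-05 and 1 for *Lpin2* with BaP and between 0.00086 and 1 for *Lpin2* with TCDD, the value of 1 coming from the test against 1.5-fold.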

How the results depend on the processing

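No gene followed through the alternatives changed its direction. With no minimum change the members called were 2 with TCDD, 4 with BaP, 1 between the ligands and 13 between the naive lines, and the other pathway genes 4, 15, 4 and 67. Tested against 1.5-fold, no member was called with BaP or for either difference in response (0 each), and of the other pathway genes 0 with either ligand, 0 for either difference in response and 11 between the lines. With 1 value per gene the naive lines differed in 5 members, and 0 members remained for the difference in TCDD response and 0 other pathway genes with TCDD. Array weights called 1 member with TCDD, *Lpin2*. The difference in TCDD response called 0 members with no intensity trend and with only the arrays compared. Compared on the TCDD and BaP arrays, the lines differed in 5 and 6 members. Without the 3 *c*35 arrays that stood apart, 0 members were called for either difference in response, and of the other pathway genes 0 for TCDD and 2 for BaP. Leaving out each array in turn gave 0 to 1 members with TCDD, 0 to 1 for the difference in TCDD response, and 1 to 2 other pathway genes with TCDD, *Angptl8* joining *Ppard*. *Angptl8* lost its difference in BaP response in 5 of those 18 fits. Between the naive lines *Acly* gained a call without wild-type DMSO replicate 2 (0.62), and *Cd36* without wild-type DMSO replicate 3 (0.59) and without *c*35 DMSO replicate 1 (0.60). The causes were not tested. Same-numbered arrays correlated at -0.26 to 0.21 in their deviations from the group means, and whether they shared handling was not tested. Replicate 1 had the highest *Actb* 3′ minus 5′ difference of each wild-type group, at 1.38 (DMSO), 1.21 (TCDD) and 1.14 (BaP). It was the highest of no *c*35 group. With a replicate block 2 members were called with BaP and 3 between the naive lines.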
